A study of Homo sapiens with 4 samples.

Results

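Box C/D small nucleolar RNAs were examined in a human breast carcinoma line with and without added LKB1. They were taken as the genes of type snoRNA whose symbol begins with SNORD, without the imprinted repeats SNORD113 to SNORD116. This gave 185 of the 34675 genes in the authors' deposited table, under 160 symbols. MDA-MB-231 is an established breast carcinoma line of the triple-negative kind, first grown from a pleural effusion. Both groups were stable lines grown in DMEM with 10% serum on plastic: one carried the pcDNA vector and the other pcDNA-FLAG-LKB1 wildtype. LKB1 is a serine/threonine kinase encoded by STK11. Each line gave 2 libraries of total RNA, made by a stranded whole-transcriptome method. Each group is a single stable line, and the labels do not say whether its 2 libraries were separate cultures. Spread in the p-values below is therefore that between libraries and could be technical alone.

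Box C/D RNAs are short stable RNAs of the nucleolus. Each carries a C box near its 5′ end and a D box near its 3′ end, which are held together by a stem and bound by NHP2L1, NOP56, NOP58 and the methyltransferase fibrillarin (FBL). Most pair with ribosomal RNA, or with the U6 small nuclear RNA, through a stretch upstream of the D box or of an internal copy of it, and so place a methyl group on a chosen ribose. A few, among them U3 (SNORD3A), U8 (SNORD118), U13 (SNORD13) and U14 (SNORD14), serve the cleavage or folding of the ribosomal RNA precursor instead or as well. In human cells most are cut out of introns of host genes, whose exons often encode ribosomal or nucleolar proteins or no protein at all, while U3, U8 and U13 are made as separate transcripts.

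The sequences below are those of members on which the results turn: the pair SNORD49A and SNORD49B, which lie in 1 host, 3 members of the host GNL3, SNORD36C and SNORD96A among the higher members, SNORD67, which guides U6 modification, and SNORD41, the member called lower. Capitals mark the best C box (ATGATGA or GTGATGA with at most 1 base off, within the first 20 bases) and the D box (CTGA, within the last 20 bases). Each runs 5′ to 3′ along the RNA, in DNA letters.
SNORD49A: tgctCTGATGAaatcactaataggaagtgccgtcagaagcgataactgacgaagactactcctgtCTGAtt
SNORD49B: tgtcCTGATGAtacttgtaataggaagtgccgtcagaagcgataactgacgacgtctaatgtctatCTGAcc
SNORD19: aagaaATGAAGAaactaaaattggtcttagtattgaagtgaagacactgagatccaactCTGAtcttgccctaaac
SNORD19B: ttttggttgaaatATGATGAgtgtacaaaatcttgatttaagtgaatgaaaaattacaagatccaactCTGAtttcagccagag
SNORD69: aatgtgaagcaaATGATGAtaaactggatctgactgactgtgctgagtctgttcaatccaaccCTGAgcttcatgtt
SNORD36C: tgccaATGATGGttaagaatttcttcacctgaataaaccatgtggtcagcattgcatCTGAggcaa
SNORD96A: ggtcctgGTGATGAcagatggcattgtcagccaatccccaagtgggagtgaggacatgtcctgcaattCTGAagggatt
SNORD67: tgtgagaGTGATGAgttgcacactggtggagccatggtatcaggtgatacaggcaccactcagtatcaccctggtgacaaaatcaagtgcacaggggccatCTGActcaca
SNORD41: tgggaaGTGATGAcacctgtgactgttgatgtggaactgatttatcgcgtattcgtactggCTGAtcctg

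The boxes fitted the class name. A sequence was found for 156 of the 185 members, and 142 of these (91.0%) held the C box and 148 (94.9%) the D box. Among the members with at least 20 reads, 115 had a sequence, of which 109 (94.8%) held the C box and 113 (98.3%) the D box. All 11 called members with a sequence held both. SNORD49A and SNORD49B share an unbroken run of 35 bases, from position 18 to position 52 of each, counted from 1 at the 5′ end. SNORD19 and SNORD19B share 15 bases that include the D box, and SNORD36C shares no run longer than 8 bases with SNORD36A or SNORD36B.

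The table gave 1 fold per gene and no value per library, but whole-read totals of each group, the sum of its 2 libraries, could be recovered from the fold for 28111 of the 28242 genes with reads (99.5%). The LKB1 libraries held 1.04 times the depth of the vector libraries. Folds were read as LKB1 over vector because STK11 was above 1: it had 1321 reads in the vector group and 2112 in the LKB1 group, a fold of 1.54 in the authors' deposited table (adjusted p = 0.00105). That direction is not independent evidence. A test of the labels found that 1 of the 2 groups does not look like the cell line it is named for. All 6 markers of mesenchymal breast carcinoma cells had 40 or more reads, with 2 called higher and 1 lower. Of 7 endothelial markers 6 were called lower, and their summed reads were 2243 in the vector group and 622 in the LKB1 group. Fibroblast markers summed to 723 and 412 reads, with 3 of 5 called lower and DCN at 0, and leukocyte markers to 1042 and 396, with 1 of 4 called higher and 2 lower. The word fmRNA stands in the titles of the LKB1 libraries in place of mRNA in the vector ones, and 1 LKB1 library has another run tag. The part of these differences in the results below was not tested, and library preparation and group cannot be told apart.

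Reads were found for 160 of the 185 members, 137 had at least 20 over both groups and 25 had none. The median of the 133 members with at least 20 reads and resolved totals was 679 reads. SNORD3A, SNORD15B, SNORD30 and SNORD35A had no resolved totals. Totals were searched up to 12000 reads per group and are not resolved near that limit, so these members are taken to have the most reads. Among the others, SNORD31 led, a guide of 28S rRNA in the host SNHG1, with 9346 in the vector group and 11569 in the LKB1 group. It was followed by SNORD57 (17854 over both groups), SNORD68 (17138), SNORD81 (15182), SNORD13 (15165), SNORD5 (13533), SNORD104 (13302), SNORD46 (11286), SNORD96A (10917) and SNORD53 (10883). Per kilobase of the annotated gene, SNORD31 had 294577 reads and SNORD57 247972, and SNORD46, which is longer, had 108519. Library fragments and read mapping of RNAs with a median length of 77 bases can differ from those of long RNAs, so these levels are set only beside one another.

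Most members stood slightly higher in the LKB1 line, and a small number rose by a larger amount. In the authors' deposited table (edgeR, Benjamini-Hochberg adjusted p under 0.05 over all genes) 12 of 185 members were called higher (6.49%) and 1 lower (0.541%). Over all 34675 genes 2.55% were called higher and 3.24% lower. Many genes have too few reads to be called. In all, 5.79% were called. Above a floor of 20 reads 12.2% were called, 5.4% higher and 6.81% lower, and 11 of the 137 members with as many reads were higher (8.03%) and 1 was lower. At an unadjusted p under 0.05 there were 23 members higher and 3 lower, and 4317 of all 34675 genes in either direction. Above the floor of 20 reads 25 of the 137 members and 4010 of the 15968 genes reached that p. The median log2 fold of these 137 members was 0.22, with 105 of them (76.6%) above 0, against a median of -0.02 and 47.5% above 0 over the 15968 genes with at least 20 reads. Single members ranged from -1.10 to 1.57, with 104 within 0.5 of 0, 25 above and 8 below.

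**Figure D1:**
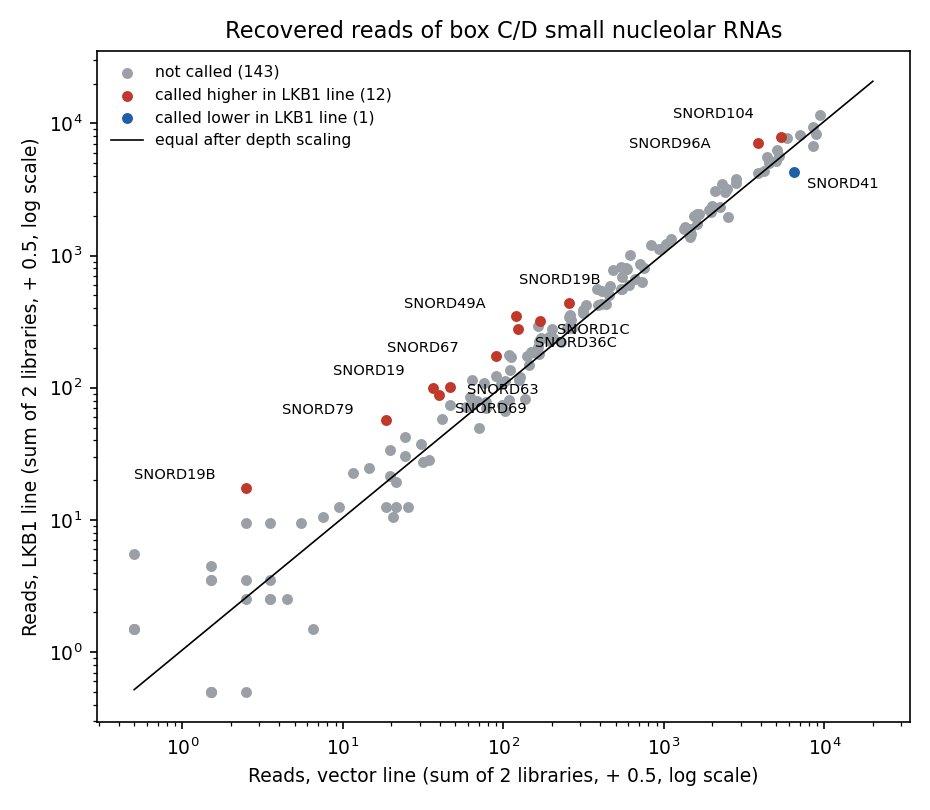
Reads of each box C/D member in the vector group (x axis) and the LKB1 group (y axis), each the sum of 2 libraries plus 0.5, on log scales. Points are 156 members with resolved totals, coloured by the deposited call, and the line marks equal levels at the depth ratio of 1.04. The 12 members called higher lie above the line from 2 to 5360 vector reads, and SNORD41 lies below it.

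Among the members listed here as guides of 28S rRNA 7 rose and 1 fell, of 54 with at least 20 reads. Over all genes with as many reads 5.4% were called higher and 6.81% lower. Their median log2 fold was 0.19, and 43 were above 0. SNORD49A showed the smallest p of any member. It had 120 reads in the vector group and 348 in the LKB1 group, which the authors' deposited table gives as a fold of 2.79 (log2 1.48, adjusted p = 1.63e-06). The exact 95% interval of its read ratio, which covers counting error only, was 2.26 to 3.46. SNORD49A lies at chr17:16343350-16343420 (hg19, plus strand) in the non-coding host C17orf76-AS1. SNORD49B of the same host, with which it shares the 35 bases, had 126 and 119 reads, and its log2 fold in the authors' deposited table was -0.14 (adjusted p = 1). The third member there, SNORD65, had 462 and 587 reads. So only SNORD49A of the 3 passed the test, and the difference between the members was not itself tested. How reads that match both SNORD49 copies were assigned is not given in the sources used here.

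SNORD36C rose from 123 to 279 reads, 2.18-fold in the authors' deposited table (a log2 of 1.12, adjusted p = 0.000524, counting interval 1.76 to 2.72). It lies at chr9:136217702-136217767 on the plus strand in RPL7A, which encodes a ribosomal protein. The other members in RPL7A had values on the same side of 0 but did not pass: SNORD24 had 1106 and 1339 reads, SNORD36B 75 and 108, and SNORD36A 61 and 84. SNORD79, at chr1:173834486-173834570 on the minus strand in the non-coding GAS5, rose from 18 to 56 reads, 2.97-fold in the authors' deposited table (adjusted p = 0.0186, counting interval 1.73 to 5.41). It had few reads beside its neighbours in GAS5, among which SNORD81 had 7021 and 8161 reads. SNORD63, at chr5:137896732-137896799 on the minus strand in HSPA9, rose from 46 to 100 reads, 2.09-fold in the authors' deposited table (adjusted p = 0.0358). A second SNORD63 locus in HSPA9, with which it shares 11 bases at most, had 34 and 28 reads and was not called.

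SNORD1C, at chr17:74554873-74554950 on the plus strand in SNHG16, rose from 169 to 317 reads, a log2 fold of 0.85 in the authors' deposited table (adjusted p = 0.00716, counting interval of the ratio 1.49 to 2.19). In the same host SNORD1B had 11 and 22 reads and SNORD1A 3 and 3, too few to compare. SNORD104, at chr17:62223443-62223512 on the plus strand, was the most abundant of the members called higher, with 5360 and 7942 reads. Its fold in the authors' deposited table was also the smallest of them, at 1.43 (adjusted p = 0.0350). The gene that holds it, RP11-329L6.1, had 5779 and 8418 reads, of which all but 419 and 476 equal those of SNORD104, so its log2 fold of 0.49 is no separate measurement.

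SNORD41 was the 1 member called lower. It fell from 6474 to 4313 reads, a fold of 0.641 (log2 -0.64, adjusted p = 0.0118) in the authors' deposited table. This RNA lies at chr19:12817263-12817332 on the minus strand in TNPO2, which encodes a nuclear import receptor. In the authors' deposited table TNPO2 stood at a log2 fold of -0.63 (adjusted p = 0.00268). Its total was not resolved and may include the reads of SNORD41, so it may be no separate measurement. Around it, the median over the 20 nearest protein-coding genes of 200 or more reads was -0.47 on the log2 scale. Less that median, SNORD41 stood at -0.17.

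None of the 33 members listed here as guides of 18S rRNA and with at least 20 reads was called. Of these, 30 were above 0, and their median log2 fold was 0.27. The nearest to the threshold was SNORD56 in NOP56, with 164 and 295 reads and a log2 fold of 0.79 (adjusted p = 0.10) in the authors' deposited table. SNORD27 in SNHG1 had 2282 and 3501 reads (log2 0.56, adjusted p = 0.106 in the authors' deposited table). Members without a listed role may also be guides, among them the SNORD19 and SNORD19B loci called higher. That none was called holds only for the list used here. Whether 18S and 28S guides differ was not tested.

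Of the 6 guides of U6 with at least 20 reads, 1 rose, against 5.4% called higher over all genes with as many reads. SNORD67, at chr11:46783939-46784049 on the minus strand in CKAP5, had 89 and 173 reads, a fold of 1.87 in the authors' deposited table (adjusted p = 0.0457, counting interval 1.44 to 2.44). CKAP5, which encodes a microtubule-binding protein, was itself called higher, with 6070 and 8851 reads (log2 0.49, adjusted p = 0.0133 in the authors' deposited table). None of the other U6 guides was called, with log2 folds from -0.25 to 0.24: SNORD10 had 2237 and 2309 reads, SNORD94 313 and 384, SNORD8 77 and 70, SNORD9 66 and 77, and SNORD7 31 and 27.

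The members that act in cleavage of the ribosomal RNA precursor lay near or below 0. Among the 11 with at least 20 reads none was called, 3 were above 0 and the median log2 fold was -0.07. SNORD13 had 8477 reads in the vector group and 6688 in the LKB1 group, a log2 fold of -0.40 (adjusted p = 0.332) in the authors' deposited table. SNORD118 had 2494 and 1953 reads, a log2 fold of -0.41 (adjusted p = 0.412) in the authors' deposited table. Relative to the median of their 20 neighbouring genes, SNORD13 stood at -0.13 and SNORD118 at -0.22. SNORD118 overlaps TMEM107, whose 2609 and 2085 reads may include its own. SNORD3A, the main U3 gene, stood at a log2 fold of -0.01 in the authors' deposited table. These 3 are made from promoters of their own, and none was called; the sign of SNORD3A turned with the scaling (0.0054 when recentred on protein-coding genes).

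The 5 copies of SNORD14, which lie in introns of HSPA8 and RPS13, had log2 folds between -0.09 and 0.28. Relative to the median of 20 neighbouring genes, SNORD14E stood at -0.22, SNORD14D at -0.20 and SNORD14C at -0.12. On the same scale SNORD14B stood at 0.05 and SNORD14A at 0.24. SNORD14C had 4190 and 4372 reads, SNORD14E 1479 and 1442, SNORD14D 432 and 428, SNORD14A 148 and 187, and SNORD14B 96 and 106. The lowest value of the group, a log2 fold of -1.10 in the authors' deposited table, belonged to SNORD3C with 25 and 12 reads (adjusted p = 0.547). SNORD22 had 662 and 669 reads at one locus and 21 and 12 at the other. Whether these members differ from the guides was not tested.

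Of the 33 members with at least 20 reads and no role in the lists used here, 26 were above 0 and their median log2 fold was 0.24. Of all 51 members without a listed role 4 were called higher, against 2.55% of all genes. SNORD96A, at chr5:180668814-180668892 on the minus strand in GNB2L1, which encodes the ribosome-bound scaffold RACK1, rose from 3877 to 7040 reads. Its fold was 1.75 (log2 0.80, adjusted p = 0.00606) in the authors' deposited table, with a counting interval of 1.68 to 1.82. Less the median of its 20 neighbouring genes, SNORD96A stood at a log2 fold of 0.58. The other 3 lie together in GNL3.

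GNL3, which encodes the nucleolar protein nucleostemin, holds 5 members within a short stretch of chromosome 3, and 4 of the 5 were called higher. From 5′ to 3′, SNORD19B at chr3:52722898-52722977 had 2 and 17 reads, a ratio of 8.18 after depth scaling with a counting interval of 1.94 to 73.0 (adjusted p = 0.0322 in the authors' deposited table). Next to it, a second SNORD19 locus had 2 and 2 reads. SNORD19B at chr3:52724760-52724843 rose from 254 to 436 reads, 1.65-fold in the authors' deposited table (adjusted p = 0.0353). SNORD19 at chr3:52725394-52725469 rose from 36 to 99 reads, 2.63-fold in the authors' deposited table (adjusted p = 0.0114). SNORD69 at chr3:52726752-52726828, a guide of 28S rRNA, rose from 39 to 88 reads, 2.16-fold in the authors' deposited table (adjusted p = 0.0270). All 5 are on the plus strand. They share 1 transcript and are not independent of one another, and without them 8 members were called higher.

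**Figure D2:**
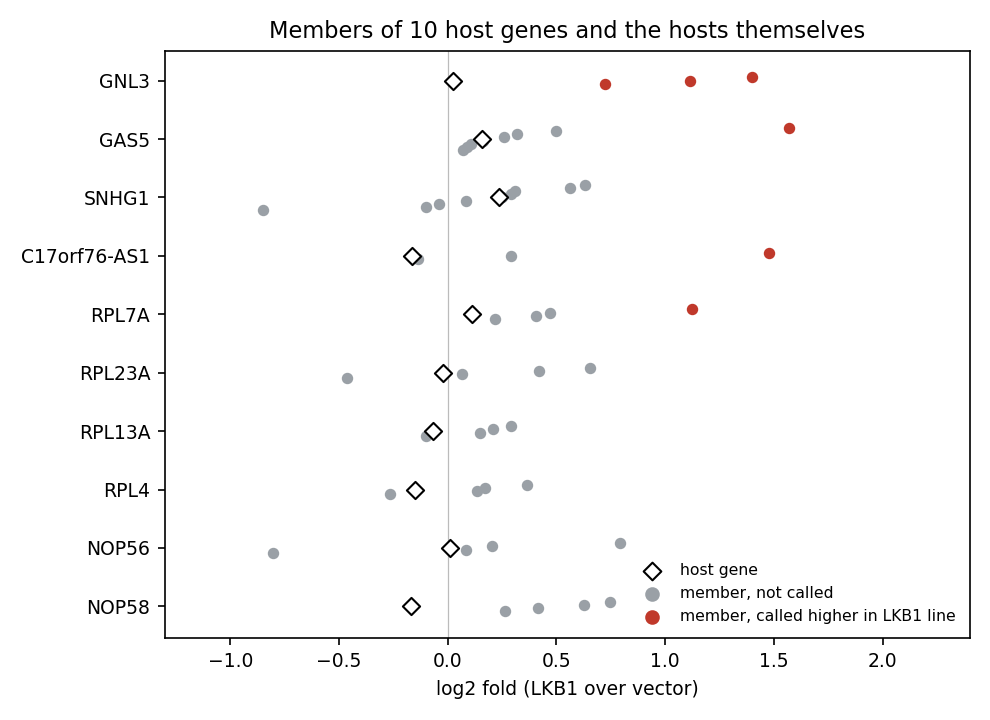
Log2 folds (LKB1 over vector, x axis) of the members with at least 20 reads in each of 10 host genes (y axis), coloured by the deposited call, with the fold of the host itself marked. The 3 members in GNL3 with enough reads lie between 0.72 and 1.40 while the host stands at 0.02, and the members in GAS5, SNHG1 and NOP56 spread on both sides of their hosts.

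Most members stood above the gene that holds them, and 2 hosts were called. A gene on the same strand that spans the member was found for 167 members, in 88 hosts, and 134 pairs in 68 hosts had at least 20 reads in the member and 40 in the host. Over these pairs the median log2 fold was 0.24 for the members and 0.02 for the hosts, and 104 of 134 members (77.6%) stood above their host. The median difference was 0.15. Of the 68 hosts, 2 were called, CKAP5 higher (1.47%) and TNPO2 lower (1.47%), against 5.77% higher and 6.86% lower among all genes with at least 40 reads. For 11 of the 12 members called higher the host was not called. All 12 lie in 9 hosts, CKAP5 among them, which had log2 folds between -0.16 and 0.49.

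**Figure D3:**
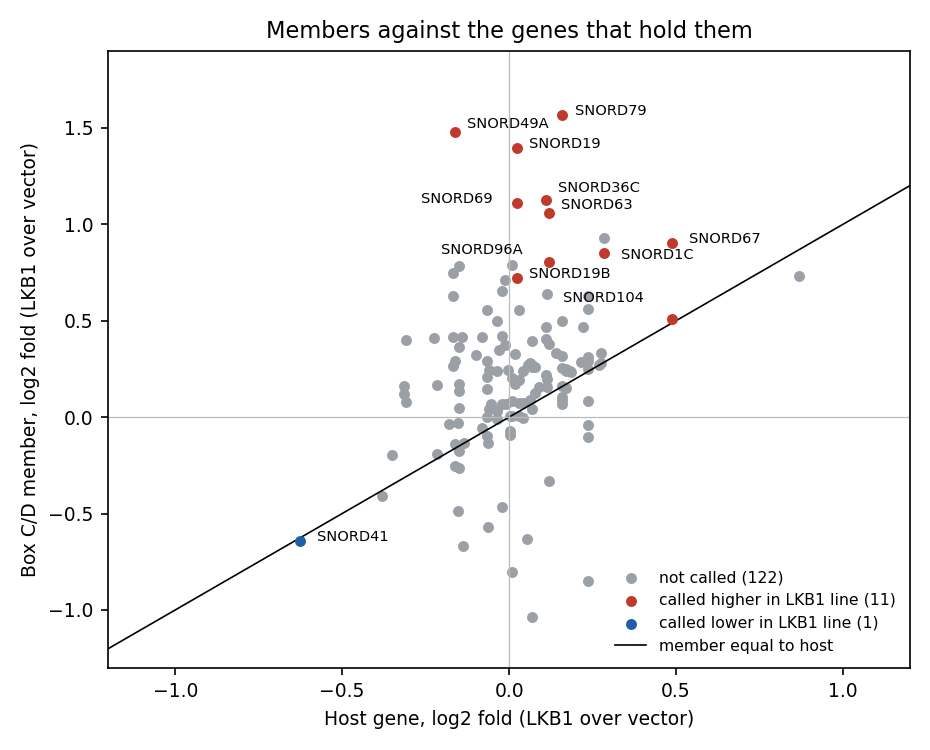
Log2 fold of each member (y axis) against that of its host gene (x axis), both LKB1 over vector in the authors' deposited table, for 134 pairs. The line marks equality; 104 points lie above it, SNORD41 lies next to it at the level of TNPO2, and SNORD49A, SNORD19 and SNORD79 lie farthest above it.

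In the 72 hosts where totals could be compared, no host had fewer reads than its members together, so a host's reads may include those of its members. Examples show what was left after the members' reads were subtracted. GNL3 had 1729 and 1826 reads, and 1396 and 1184 after its members' 333 and 642 were taken off (log2 -0.29). C17orf76-AS1 had 6338 and 5885 reads, and 5630 and 4831 without its members (log2 -0.28). NOP58, which encodes a core protein of the particle and holds 4 members, had 947 and 799 reads without its members' 135 and 203 (log2 -0.30). TMEM107 went the other way, with 115 and 132 reads left (log2 0.14). It was counted as a host by position only, because it spans SNORD118, which is made as a separate transcript. That pair is among those counted above. Over the 85 pairs for which this could be done, the median difference was 0.19 before subtraction and 0.35 after it. It grew in 76 pairs and shrank in 9. Where the summed members have a higher fold than their host, subtraction lowers the host's log2 fold by arithmetic. It does so whether or not the host's reads include those of the members. The growth and the lower values left in GNL3, C17orf76-AS1 and NOP58 are therefore no separate measurement of the hosts.

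In some hosts the members' values lay far apart, and differences between members of 1 host were not tested. In GAS5, at a log2 fold of 0.16, the 8 members ran from 0.07 to 1.57 with a median of 0.21, and the 9 in SNHG1, at 0.24, ran from -0.85 to 0.63 with a median of 0.25. The lowest of these, a SNORD22 locus, had only 21 and 12 reads. Elsewhere members stood close together, as the 3 in HSPA8 did, from -0.09 to 0.01. In NOP56 (0.01), SNORD86 stood at -0.80 and SNORD56 at 0.79. SNORD86, which has been described as acting on the splicing of NOP56 itself, had 136 and 81 reads and lay just outside the threshold in the authors' deposited table (adjusted p = 0.0581). The 4 members in NOP58 (-0.17) ran from 0.26 to 0.75. Ribosomal protein hosts gave ranges of 0.22 to 1.12 in RPL7A (0.11), -0.46 to 0.66 in RPL23A (-0.02), -0.10 to 0.29 in RPL13A (-0.07) and -0.27 to 0.36 in RPL4 (-0.15). None of these hosts was called.

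The medians of most other classes of short RNA also lay above 0. Box H/ACA RNAs guide pseudouridine formation and are mostly intronic too. They stood at a median log2 fold of 0.13 over the 103 genes that reached 20 reads, and 69 lay above 0. Of these genes 4 were called higher (3.88%) and none lower. Over all genes with as many reads 5.4% were called higher and 6.81% lower. The 20 Cajal body RNAs, which guide modification of spliceosomal RNAs, had a median of 0.27, with 17 above 0 and none called. Small nuclear RNAs (50 genes) had a median of 0.10, the mixed class misc_RNA (68) of 0.23 and mitochondrial transfer RNAs (13) of 0.67. Genes of type miRNA (95) had a median of 0.21, with 26 called higher and 5 lower, the most calls of these classes; among the 32 with at least 100 reads the median was -0.06. Genes of type rRNA (47) lay at -0.11, protein-coding genes (13241) at -0.03 and lincRNAs (654) at -0.05. A shift above 0 was thus not particular to box C/D RNAs, and the differences between classes were not tested.

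**Figure D4:**
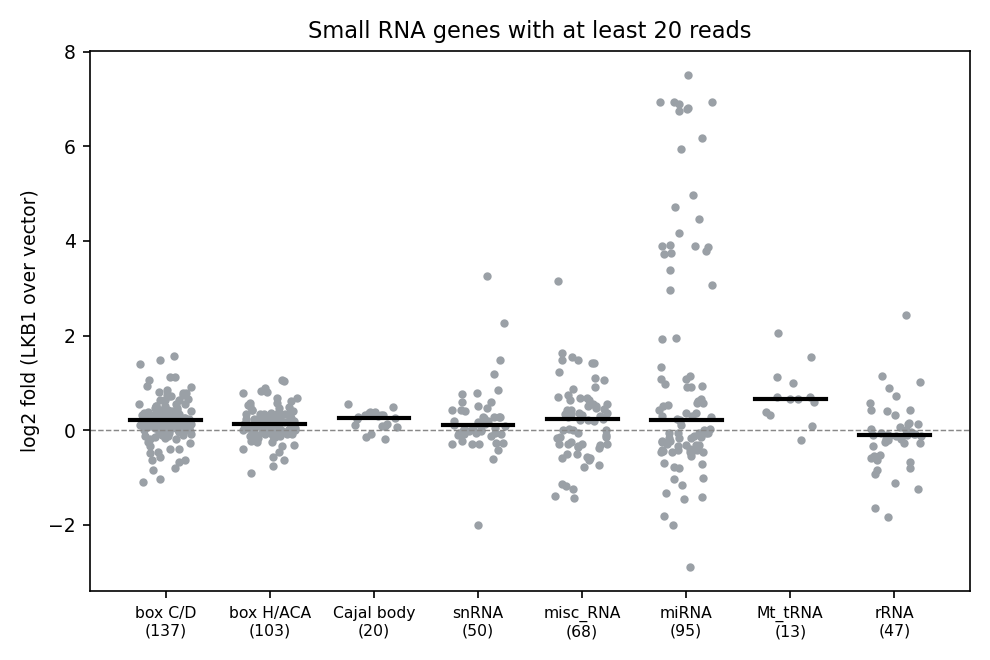
Log2 folds (LKB1 over vector) of genes with at least 20 reads in 8 classes of short RNA, 1 point per gene, with the median of each class marked. The box C/D median of 0.22 lies between those of box H/ACA RNAs (0.13) and Cajal body RNAs (0.27), while genes of type rRNA have a median of -0.11, and miRNA genes spread most widely, down to -2.89 and with several far above the other classes.

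Within the class, the members of lowest GC content stood highest. Over the 115 members with a sequence and at least 20 reads, the log2 fold and GC content had a Spearman correlation of -0.39 and a Pearson correlation of -0.38, given as a description of genes that share libraries and hosts. The 38 members of lowest GC content (31.0% to 40.9%) were centred on a log2 fold of 0.36, and 36 of them exceeded 0, the next 38 one of 0.13 and the 39 of highest GC content (47.1% to 70.3%) one of 0.13. Called members lay in all 3 sets, with 4, 3 and 4 of them. Length had a weaker relation, at -0.25 (Spearman) over 137 members, and read number almost none, at -0.02. Box H/ACA RNAs showed a correlation with GC content of -0.22 over 93 genes. For box C/D members with at least 100 reads the Spearman correlation was -0.32 with GC content (103 members) and -0.27 with length (120 members). The medians of the 3 GC sets, from low to high, were then 0.33, 0.08 and 0.15. Whether GC content or library preparation plays a part in the shift was not tested.

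**Figure D5:**
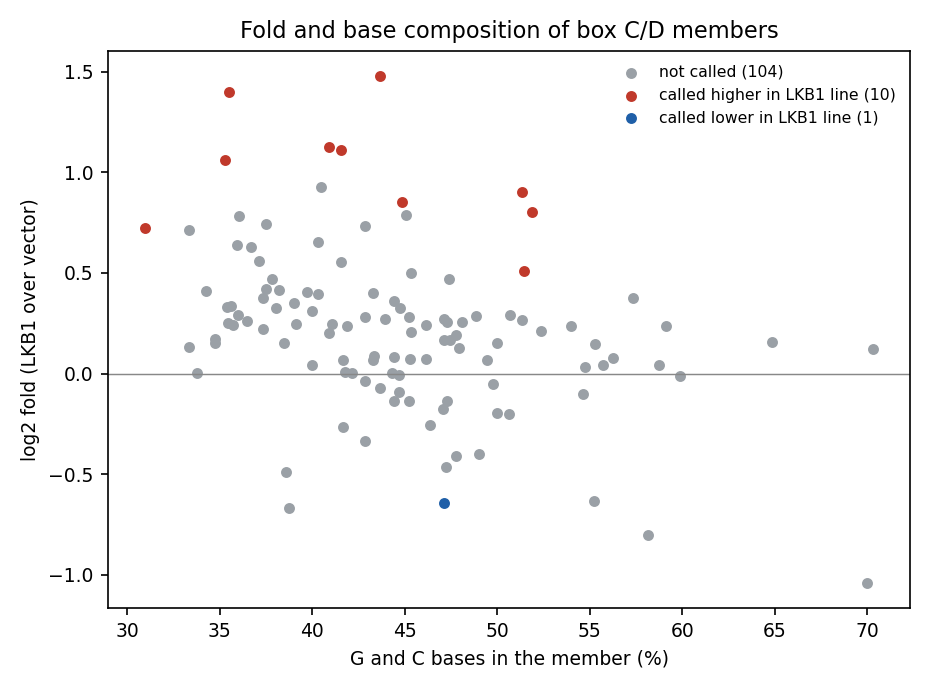
Log2 fold of each box C/D member with a sequence and at least 20 reads (y axis, LKB1 over vector) against its GC content in percent (x axis), coloured by the deposited call. The points scatter widely, and 36 of the 38 members of lowest GC content lie above 0.

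Among the genes listed here for proteins that act with these RNAs, none was called higher and 2 were called lower. The 4 core proteins FBL, NOP56, NOP58 and NHP2L1 had a median log2 fold of -0.18 and none was called. FBL had 2888 and 2575 reads (adjusted p = 0.719 in the authors' deposited table). Among 10 assembly factors the median was -0.06, and among 17 genes of maturation and transport 0.03, with none called in either. Of 30 proteins of the U3 processome, which binds the ribosomal RNA precursor, 2 were called lower. DCAF13 had 669 and 475 reads (log2 -0.55, adjusted p = 0.0229 in the authors' deposited table) and PWP2 had 1140 and 832 (log2 -0.51, adjusted p = 0.0391 in the authors' deposited table). Over the 30 the median was -0.14. For comparison, 5.77% of the genes with at least 40 reads were called higher and 6.86% lower. No gene was called among 6 core proteins of box H/ACA particles (median -0.13), 15 genes of RNA polymerase I and its factors (-0.07), 10 of nonsense-mediated decay (-0.02) or 15 hosts listed as non-coding (0.11). The table types 2 of the last list, TAF1D and SNHG16, as protein-coding, and TAF1D is also among the polymerase I factors.

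How far the calls reach depends on the spread between libraries, which the table does not show directly. The variation between libraries implied by the p-values of the authors' deposited table had a median coefficient of 0.145 over 120 members and ran from 0.112 to 0.195 for 12 called members. With a coefficient of 0.2 assumed for every gene, 4 of the 12 members stayed called higher, SNORD49A, SNORD36C, SNORD19 and SNORD79, and SNORD41 was not called; 0.805% of all genes were then higher and 1.7% lower. With 0.4 no member was called, against 0.141% of all genes higher and 0.626% lower. In the authors' deposited table at an adjusted p under 0.01, 4 members were higher and 0 lower, against 1.64% and 2.31% of all genes. Under 0.1 there were 14 higher and 2 lower, against 3.09% and 3.87%.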

How the data were processed

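Total RNA of 4 libraries, 2 of each line, was compared in 1 table by the authors. Per the file headers, the authors deposited for each gene a fold (ratio of groups), the log2 of that fold, and raw and adjusted p-values; the latter matched a Benjamini-Hochberg adjustment over all genes within 1.89e-06. Tools named in the submitters' processing notes, without roles, are edgeR 2.6.0, TopHat2 2.0.6 and CASAVA 1.8.2, on hg19; for counting, annotation and strand, nothing is given in the sources used here. The deposited folds take only values that whole reads with small prior counts (0.245 vector, 0.255 LKB1) allow, from which read totals per group were recovered up to 12000 reads; the recovery was tested on simulated data. Fold changes include these priors and understate the change of low genes. Exact 95% (Clopper-Pearson) intervals cover counting error only. They treat reads as independent molecules, which reads are not, and leave out the variation between libraries. Host genes were the same-strand gene with most reads spanning the member. Sequences came from GENCODE 29 transcripts (GRCh38), kept where their length equalled the hg19 span; coordinates are those of the table. Of the symbols, 18 stand at several loci (43 loci, 17 without reads), and 13 members overlap a gene on the other strand; reads there are uncertain. Named were all called members, the 10 with most reads, cleavage members, hosts of 4 or more members and leading genes of each list; 1 such host is not reported here. Breast receptor markers (5 genes, 3 with 40 reads or more) had 0 calls. The members and lists were chosen with earlier results of these data known. Python 3.11.15 with pandas 2.3.3 and scipy 1.17.1 was used.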

Additional observations from a re-analysis of the deposited data

How the results depend on the processing

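Of 117 values recomputed under alternatives, many could not change sign. The assumed variations leave a member's log2 fold as it is, and counts and shares cannot be negative. Among the rest 4 changed sign, all of members that were not called: SNORD3A (0.0054 recentred on protein-coding genes and 0.029 less its 20 neighbours), SNORD22 (0.052 less its neighbours) and SNORD14C (-0.12 less its neighbours). The count of members called higher was 12; it was 4 at an adjusted p under 0.01, 14 under 0.1, 11 with at least 40 reads, 4 with a variation of 0.2 assumed for every gene and 0 with 0.4. The count called lower was 1, and 0 at an adjusted p under 0.01, 2 under 0.1, 0 with a variation of 0.2 and 0 with 0.4. The median log2 fold ranged from 0.17 to 0.25 and the share above 0 from 73.8% to 79.2%. The median difference from the host ranged from 0.13 to 0.35, the highest with member reads taken off the host. That subtraction raises the difference by arithmetic where the summed members have a higher fold than their host. It was an alternative chosen after seeing the data, as were those without the members in GNL3 and without called members. No paired analysis was possible because the table holds no value per library. For the same reason leaving out each replicate and another normalization were not run. Members with few reads are limited by depth: 23 had reads but fewer than 20.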

Other observations

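The imprinted repeats SNORD113 to SNORD116, which are kept apart because they lie in long tandem clusters, were almost silent: 17 of 58 had reads and none reached 20. Their reads summed to 8 in the vector group and 87 in the LKB1 group. SNORD114-23 had 1 and 16 reads, SNORD114-12 had 0 and 12, SNORD114-22 had 0 and 12, and SNORD114-17 had 0 and 10, and these 4 were called higher in the authors' deposited table (edgeR). The long non-coding RNAs of the same locus had 15 and 7 reads (MEG3) and 9 and 8 (MEG8).

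Besides SNORD41, SNORD86 and the cleavage members, a few members with at least 20 reads had a log2 fold under -0.5. Those given here were picked after their values were seen, and none was called. SNORD51 in EEF1B2 had 101 and 66 reads, SNORD23 in GLTSCR2 20 and 10, and SNORD125 in AP1B1 18 and 12. On the other side of the threshold SNORD89 in RNF149 had 828 and 1192 reads (adjusted p = 0.0772 in the authors' deposited table) and SNORD58C had 618 and 1000 (adjusted p = 0.0833 in the authors' deposited table).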
